A study of Danio rerio with 11 samples.

Results

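Immediate early genes are genes that cells switch on within minutes of a stimulus without first making new protein. Many of them encode transcription factors, such as the Fos and Jun proteins that pair to form AP-1, and growth factor signals through Erk, neuronal activity, wounding and cellular stress are all known to induce them. Many of their transcripts are short-lived, so an induced level can reflect the time just before RNA was taken. Transcript turnover was not measured here. The set described here was given as 9 symbols (fos, fosb, fosl2, jun, junb, junbb, egr1, atf3 and ier2), and its members are the 7 of these that are row names in the deposited tables of 14473 genes. The other 2 symbols, junb and ier2, are older names of junba and ier2a in RefSeq. The tables hold junba, which is described beside the members. They have no row named ier2a, so it was not analysed here. The member fos is now called fosab in RefSeq.

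RNA was sequenced from 11 whole zebrafish embryos, 1 embryo per library. They were raised without treatment at 29 °C to about 25 hours post fertilisation (hpf). The 6 mutants (replicates 1, 3, 4, 5, 6 and 7) are labelled rfx4 mutant, and the 5 siblings (replicates 2, 3, 4, 7 and 8) are labelled control. Per the series design, all came from a cross of fish that carried the rfx4 allele uw8013 and were sorted by how they looked, so siblings may be wild type or heterozygous. The growth protocol in the labels instead names parents with zic2 mutations, and the labels do not settle which is right. The gene rfx4 encodes a winged-helix transcription factor that the title of the series ties to the midline of the neural tube.

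Levels are in CPM, which sets the counts of each library against a total of 1000000. The library total used is that of the genes past the low-count filter, scaled between libraries by TMM normalisation. The range of rfx4 was 32.7 to 54.1 CPM among mutants and 50.6 to 74.3 CPM among siblings, so the groups overlapped. Mutants 1, 3, 4 and 5 were below every sibling, at 32.7, 37.8, 39.8 and 35.7 CPM. Mutants 6 and 7, at 54.1 and 51.1 CPM, lay within the sibling range. An RNA level need not show a lesion. Total counts per library were 16238368 to 18296024 among mutants and 17133737 to 21104811 among siblings. Every marker in the tables for muscle, blood, skin, neurons, neural progenitors, notochord, hatching gland and myeloid cells was detected, which is what a whole embryo holds. Mutant 6 stood apart: in 142 of 10628 genes with a mean count of at least 50 its level was more than 2-fold above or below all other embryos. That number was 0 for mutant 5, 10 for mutant 7, 15 for sibling 7 and at most 7 for each of the others. In whole-embryo RNA, fewer expressing cells and less RNA per cell cannot be told apart.

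Per transcript length, jun was the most abundant of the members and fosb the least. Over the 11 embryos jun averaged 50.5 ± 5.28 TPM (SD; transcripts scaled for length and to 1000000) and junbb 15.3 ± 3.78 TPM, and their ranges did not overlap. Next came atf3 at 6.29 ± 2.25 TPM, fosl2 at 6.26 ± 0.86 TPM, egr1 at 6.08 ± 2.21 TPM and fos at 5.67 ± 6.82 TPM. These 4 levels differed by less than their spread between embryos. At 0.177 ± 0.089 TPM, fosb was close to the limit of detection, with 2 to 7 counts in every library.

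The member that differed most between the groups was fos, the founding Fos subunit of AP-1 and a standard readout of recent stimulation. Its level was 4.95, 3.16, 1.79, 15.3, 25.3 and 6.46 CPM in mutants 1, 3, 4, 5, 6 and 7. In siblings 2, 3, 4, 7 and 8 it was 1.02, 1.56, 3.96, 3.17 and 2.32 CPM. Mutants 5 and 6 were far above every other embryo, mutants 1 and 7 were just above all siblings, and mutants 3 and 4 lay inside the sibling range. Mutants averaged 9.50 ± 9.10 CPM and siblings 2.41 ± 1.19 CPM (SD, n = 6 and 5), a 3.95-fold ratio of means, whereas the ratio of medians was 2.45. Mutants 5 and 6 supplied 69.8% of all fos counts of the mutants, 683 of 978. The fitted log2 fold change was 1.99 ± 0.63 (SE), with a 95% interval from 0.62 to 3.35. This did not pass over all genes by edgeR (adjusted p = 0.614, unadjusted p = 0.00788, rank 153 of 12301 genes by p) or DESeq2 (adjusted p = 0.276). An exact two-sided permutation test on log2 CPM over the 462 splits of the embryos gave p = 0.0628. Without mutant 6 the log2 fold change was 1.40 ± 0.52, and the exact permutation p was 0.111.

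**Figure D1:**
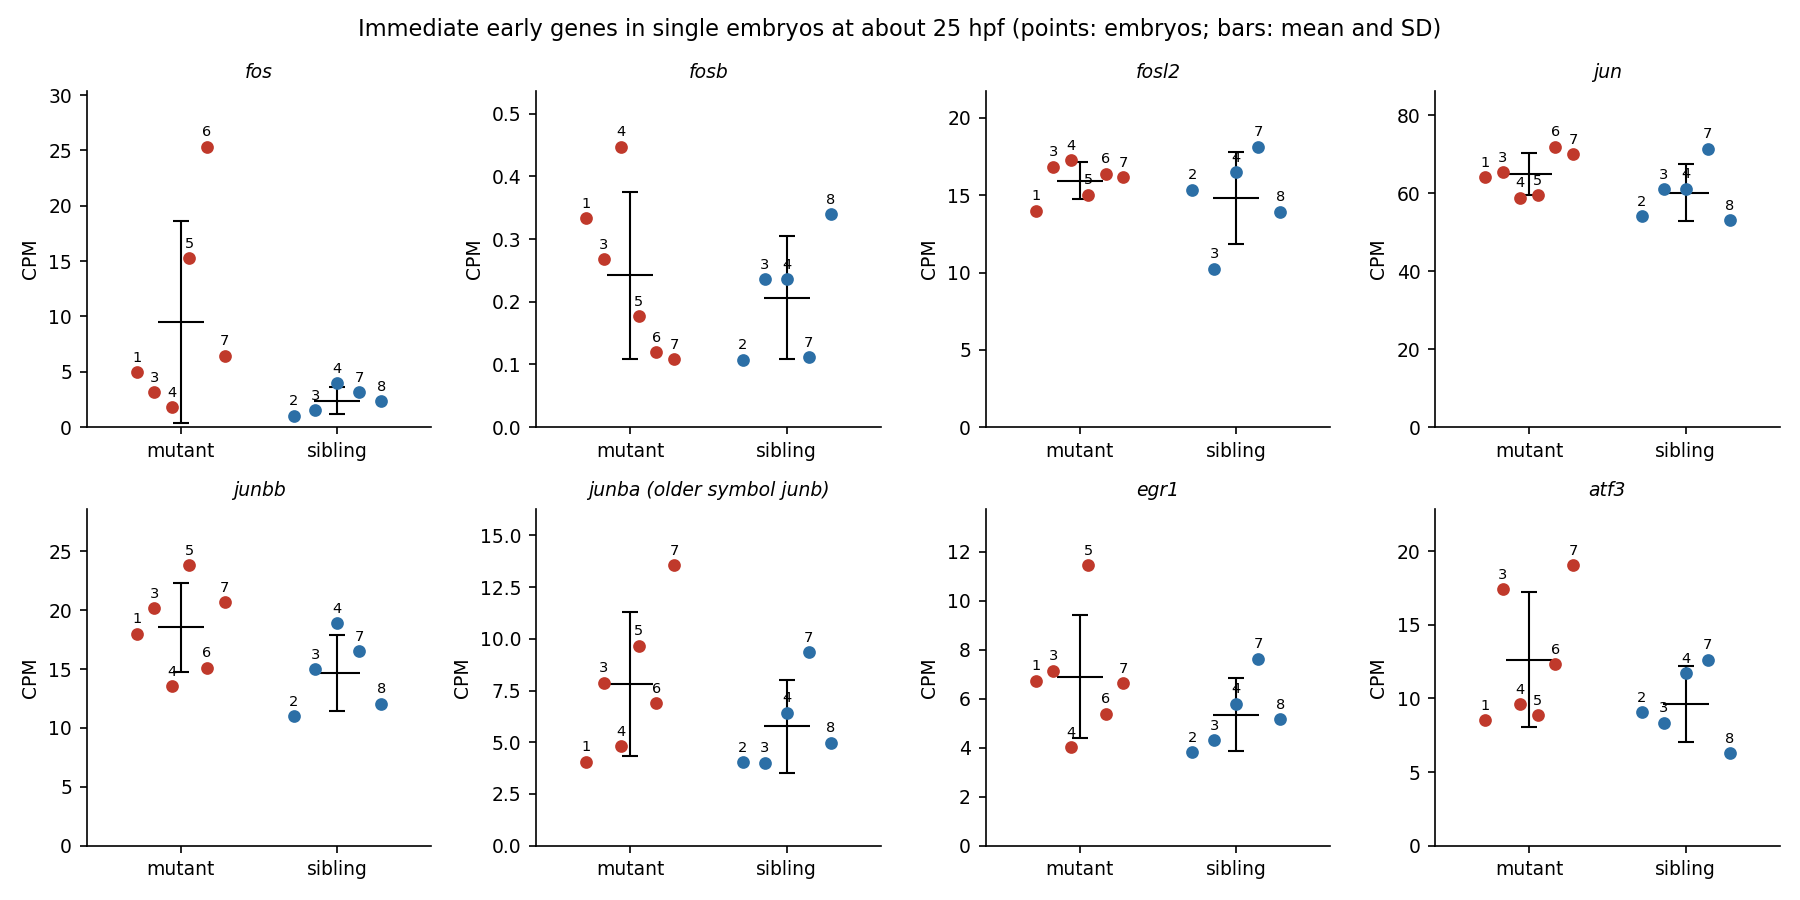
Levels of the 7 members and of junba in CPM (y axis, from 0) in mutants (red, left) and siblings (blue, right). Points are embryos numbered by replicate, and bars give the mean and 1 SD. For fos, mutants 5 and 6 stand at 15.3 and 25.3 CPM while no sibling exceeds 3.96 CPM; for the other genes the groups overlap more closely.

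Of the other Fos-family members, fosl2 varied little between mutants and more between siblings (SD of log2 CPM 0.11 and 0.31). For fosb there were too few counts for its spread to be judged. The level of fosl2, which encodes a Fos-related AP-1 subunit, had a lowest value of 14.0, a median of 16.3 and a highest of 17.3 CPM in mutants. In siblings 2, 3, 4, 7 and 8 it was 15.4, 10.2, 16.5, 18.1 and 13.9 CPM. All 6 mutants lay within the sibling range, and sibling 3 was the lowest embryo. The log2 fold change was 0.11 ± 0.13 (SE), with a 95% interval from −0.17 to 0.38. For fosb, a further Fos subunit, there were 6, 5, 7, 3, 2 and 2 counts in mutants 1, 3, 4, 5, 6 and 7, and 2, 5, 4, 2 and 6 counts in siblings 2, 3, 4, 7 and 8. It was the only member to miss the low-count filter. The 2 mutants richest in fos had 3 and 2 fosb counts, so no parallel rise of fosb was detectable at this depth.

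Among the Jun subunits of AP-1, jun varied less between embryos than junbb in both groups. The level of jun had a lowest value of 58.8, a median of 64.7 and a highest of 71.9 CPM in mutants. In siblings it was 54.1, 61.0, 61.2, 71.3 and 53.0 CPM, in the order of replicates 2, 3, 4, 7 and 8. Only mutant 6 exceeded every sibling, at 71.9 CPM beside 71.3 CPM in sibling 7, and mutants 4 and 5 lay in the middle of the siblings. Its log2 fold change was 0.11 ± 0.08 (SE), and the 95% interval reached from a 0.951-fold to a 1.23-fold level in mutants. The level of junbb was 18.01, 20.2, 13.6, 23.8, 15.1 and 20.7 CPM in mutants 1, 3, 4, 5, 6 and 7, against 11.01, 15.0, 18.9, 16.5 and 12.1 CPM in siblings 2, 3, 4, 7 and 8. Mutants 3, 5 and 7 were above all siblings, and the other 3 mutants lay among them. The averages were 18.6 ± 3.79 CPM in mutants and 14.7 ± 3.22 CPM in siblings, a log2 fold change of 0.34 ± 0.17 (SE) that did not pass (edgeR adjusted p = 0.745; exact permutation p = 0.110).

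The paralog junba had 4.06, 7.88, 4.80, 9.68, 6.88 and 13.6 CPM in mutants 1, 3, 4, 5, 6 and 7. Its sibling levels were 4.03, 4.01, 6.44, 9.35 and 4.99 CPM, so mutants 5 and 7 were the only ones above sibling 7. The log2 fold change was 0.44 ± 0.31 (SE; edgeR adjusted p = 0.810). A further pair of AP-1 subunits, chosen after their values were seen, were fosl1a at 0.70 ± 0.31 (unadjusted p = 0.0411, edgeR adjusted p = 0.721) and jund at 0.24 ± 0.15 (adjusted p = 0.799). For fosl1a, 4 of 6 mutants lay above all siblings, with mutant 3 the highest at 6.43 CPM and sibling 4 the highest of its group at 3.31 CPM.

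The zinc-finger gene egr1, a direct target of Erk signalling through serum response factor, had 6.73, 7.13, 4.03, 11.4, 5.38 and 6.62 CPM in mutants 1, 3, 4, 5, 6 and 7. In siblings 2, 3, 4, 7 and 8 it had 3.81, 4.30, 5.79, 7.62 and 5.16 CPM. Only mutant 5 exceeded all siblings, and mutant 6, the highest embryo for fos, lay in the middle of them. The log2 fold change was 0.37 ± 0.25 (SE; edgeR adjusted p = 0.806), and it was 0.17 ± 0.21 without mutant 5. The gene atf3 encodes a stress-induced bZIP factor that can pair with Jun proteins. It had 8.50, 17.4, 9.59, 8.85, 12.3 and 19.0 CPM in mutants 1, 3, 4, 5, 6 and 7, against 9.07, 8.36, 11.7, 12.6 and 6.29 CPM in siblings 2, 3, 4, 7 and 8. Here mutants 3 and 7 were the 2 above all siblings, while mutant 5, high in fos, junbb and egr1, lay near the sibling median of 9.07 CPM. The log2 fold change was 0.40 ± 0.25 (SE; edgeR adjusted p = 0.797).

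No member passed the test across all genes. The edgeR quasi-likelihood test called 0 of the 6 tested members at an adjusted p of 0.05, where the background was 0% of 12301 tested genes. At an unadjusted p under 0.05 it gave 1 member, fos, against 6.85% of all tested genes. DESeq2 called 0 members and 0.358% of genes. All 6 tested members had fitted values above 0, with a median log2 fold change of 0.36, and 50.2% of all tested genes did, with a median of 0.0009. The smallest of them, fosl2, was at −0.0032 without sibling 3. The members share their libraries and are not independent measurements. Of the 6, 0 separated the groups without overlap, against 0.943% of all tested genes.

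**Figure D2:**
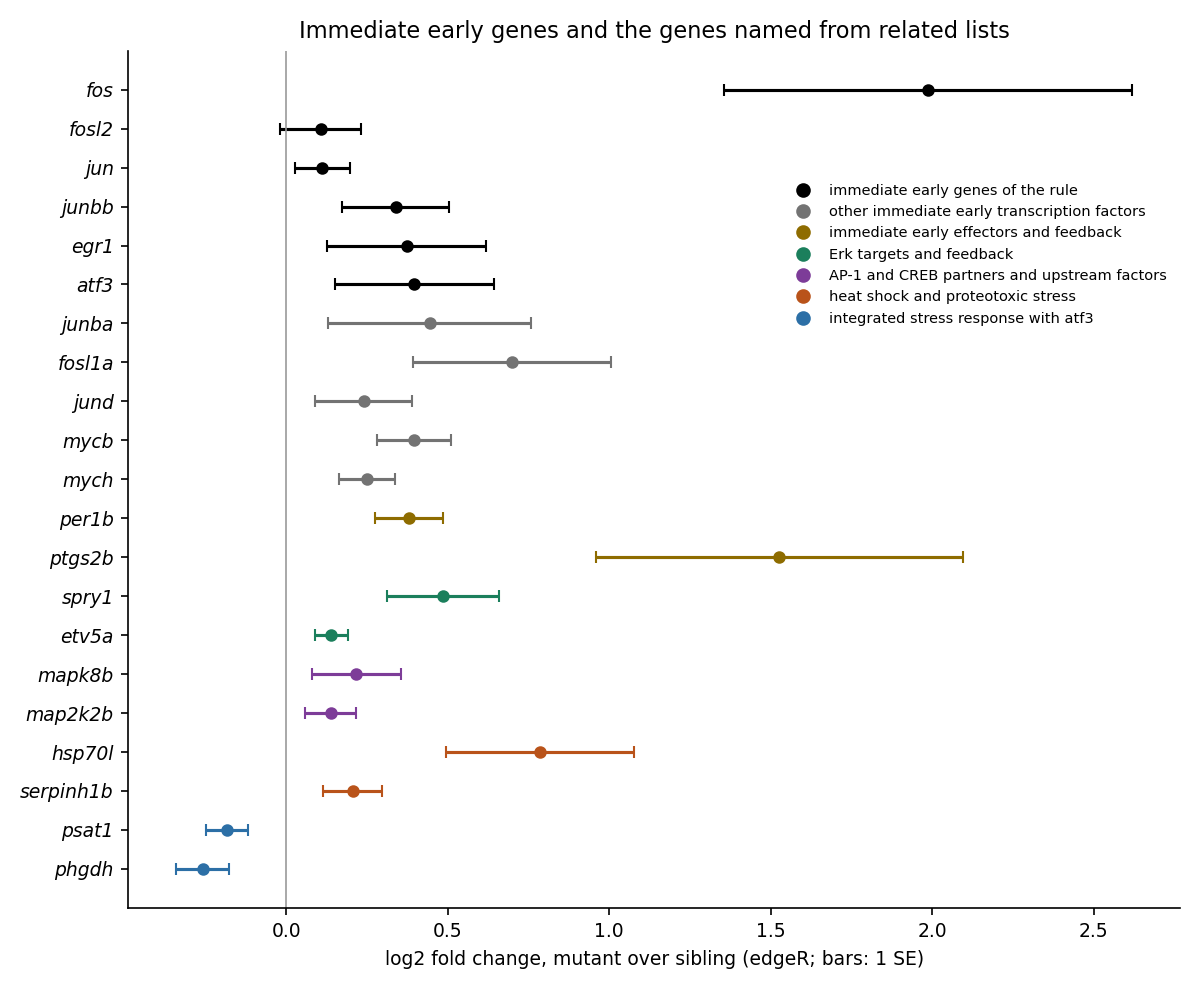
Log2 fold changes, mutant over sibling, from the edgeR fit (x axis; bars give 1 SE) for the 6 tested members (black), other AP-1 subunits and the genes named from related lists (colours). All 6 tested members lie right of 0, fos farthest at 1.99 (fosl2 moved to −0.0032 without sibling 3), while psat1 and phgdh lie left of it. None of the genes plotted passed after adjustment over all genes, and edgeR called 0 of all 12301 tested genes.

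Levels of fos varied widely between embryos in both groups. The SD of its log2 CPM was 1.40 in mutants and 0.76 in siblings. Of the 2754 tested genes with a mean count from 0.5 to 2 times that of fos, 14 (0.508%) had as large an SD in mutants and 67 (2.43%) in siblings. The same share was 6.14% in mutants and 8.83% in siblings for atf3, 9.67% and 15.2% for egr1, and 17.8% and 11.5% for junbb. For jun these shares were 60.2% in mutants and 26.5% in siblings, and for fosl2 82.5% and 12.4%, so in mutants most genes of like abundance varied as much as these 2 members. The highest fos level was 14.2 times the lowest among mutants and 3.88 times the lowest among siblings. Genes were matched on the mean over all 11 embryos, 109 counts for fos, whereas siblings averaged 43.4 fos counts. Fewer counts carry more counting noise, so the 2.43% for fos in siblings is not a comparison at like abundance.

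Whether the members were high in the same embryos was examined on deviations of log2 CPM from the mean of each embryo's own group. All 6 tested members were above their group mean in mutant 7, sibling 4 and sibling 7, although in mutant 7 fos was so by only 0.003, egr1 by 0.015 and fosl2 by 0.023, and in sibling 4 jun by 0.034. In mutant 1, mutant 4, sibling 2 and sibling 8, 1 of the 6 was above it. Library totals were alike in these embryos, from 17133737 to 18784496 counts in the 3 where all were above and from 16238368 to 18430191 in the 4 where 1 was. Mutants 5 and 6, richest in fos, had 3 and 4 members above their group mean. By level over all 11 embryos, without reference to the group means, the 4 highest for fos and the 3 highest for junbb were mutants, and sibling 7 was among the 3 highest for fosl2, jun, egr1 and atf3.

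**Figure D3:**
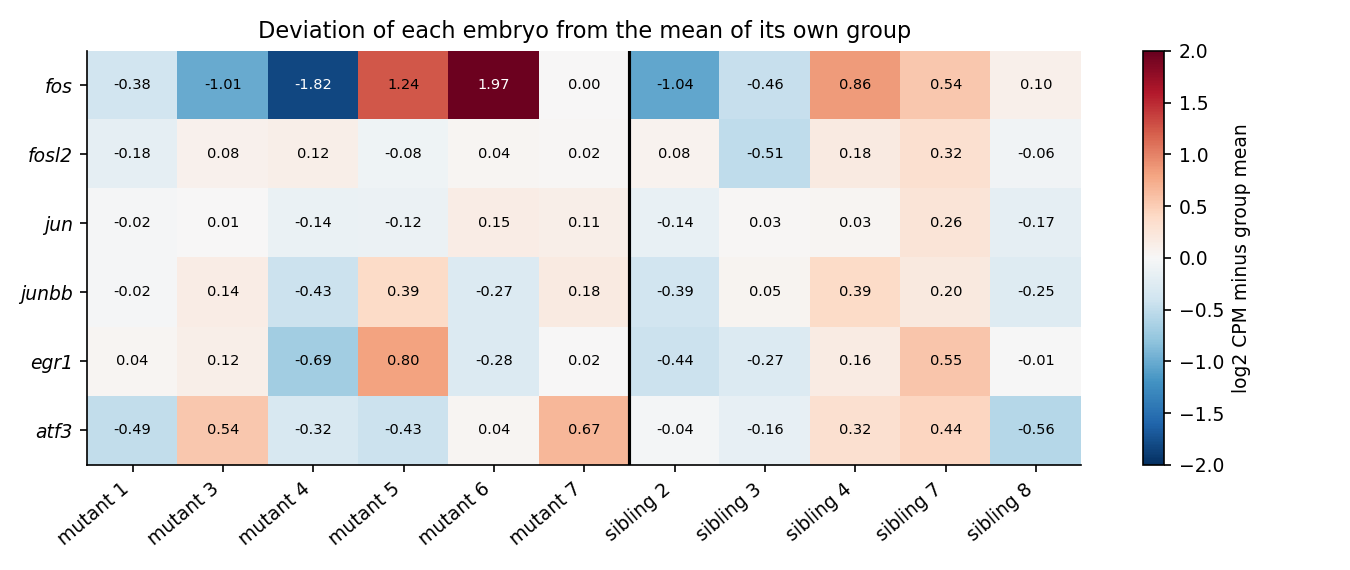
Deviation of each embryo (columns; mutants left of the line, siblings right) from the mean log2 CPM of its own group for the 6 tested members (rows); red is above and blue below. Siblings 4 and 7 and mutant 7 are above the mean in every row, and mutant 4 is below it in 5 of the 6; fos has the strongest colours, at 1.97 in mutant 6 and −1.82 in mutant 4.

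All 15 pairs of the 6 tested members had a Pearson r above 0 on these deviations, with a median of 0.39. The shared sign depended on single embryos. Without sibling 7, r was below 0 for fosl2 with jun (−0.12), junbb (−0.12) and egr1 (−0.10). It was then also below 0 for jun with egr1 (−0.04) and egr1 with atf3 (−0.02), and above 0 for the other pairs. Values below 0 also arose without sibling 4 (fosl2 with junbb, −0.13), mutant 4 (fos with atf3, −0.095), sibling 3 or sibling 8. By Spearman's rho, fos with fosl2 was at −0.03 over all 11 embryos. At a permutation p under 0.05 there were 2 pairs by Pearson's r, of which 0 passed after adjustment over the 15, and 1 of them passed by Spearman's rho. The closest pair was junbb with egr1, with r = 0.82 (permutation p = 0.00367, adjusted p = 0.055) and Spearman's rho = 0.91 (permutation p = 0.00084, adjusted p = 0.0126) over 11 embryos. Leaving out mutant 4 and sibling 2, the embryos farthest from the median of junbb, r was 0.68 (permutation p = 0.0676). Dropping the embryos most extreme in 1 member tends to lower r by itself, so this fall does not show what the relation rested on. With any 1 embryo left out, r was 0.75 to 0.87 (adjusted permutation p at most 0.274). The pair jun and atf3 followed, with r = 0.69 (permutation p = 0.0239, adjusted p = 0.179) and rho = 0.71 (permutation p = 0.0195, adjusted p = 0.146). Without siblings 7 and 8, the farthest for jun, r was 0.59 (permutation p = 0.155), and with any 1 embryo left out it was 0.61 to 0.75.

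The relation of fos to the other members depended on single embryos. In mutant 6 fos was at its highest while junbb and egr1 were below the mutant mean, and in mutant 4 all 3 were at their lowest among mutants. Over all 11 embryos fos had r = 0.55 with egr1 (permutation p = 0.120, adjusted p = 0.436; rho = 0.54, permutation p = 0.117, adjusted p = 0.341) and r = 0.42 with junbb (permutation p = 0.213, adjusted p = 0.490; rho = 0.54, permutation p = 0.108, adjusted p = 0.341). Without mutant 6 these were r = 0.90 and r = 0.83, with the same adjusted permutation p of 0.043. Without mutant 4 they were r = 0.33 and r = 0.19 (adjusted permutation p = 0.745 and 0.797). Without both mutants 4 and 6, the farthest for fos, they were 0.84 and 0.74 (permutation p = 0.0128 and 0.0255). With jun, r of fos was 0.45 over all embryos (permutation p = 0.145, adjusted p = 0.436; rho = 0.48, permutation p = 0.136, adjusted p = 0.341), 0.29 without mutant 6 and 0.32 without mutant 4. Without mutant 5, r of fos with jun was 0.65 (adjusted permutation p = 0.172). With atf3, r of fos was 0.07 over all embryos, 0.06 without mutant 6, −0.095 without mutant 4 and 0.23 without mutant 5. Leaving out mutant 6 raised the pairs that passed to 4, with jun and atf3 (r = 0.74) and junbb and egr1 (r = 0.81) as the others.

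**Figure D4:**
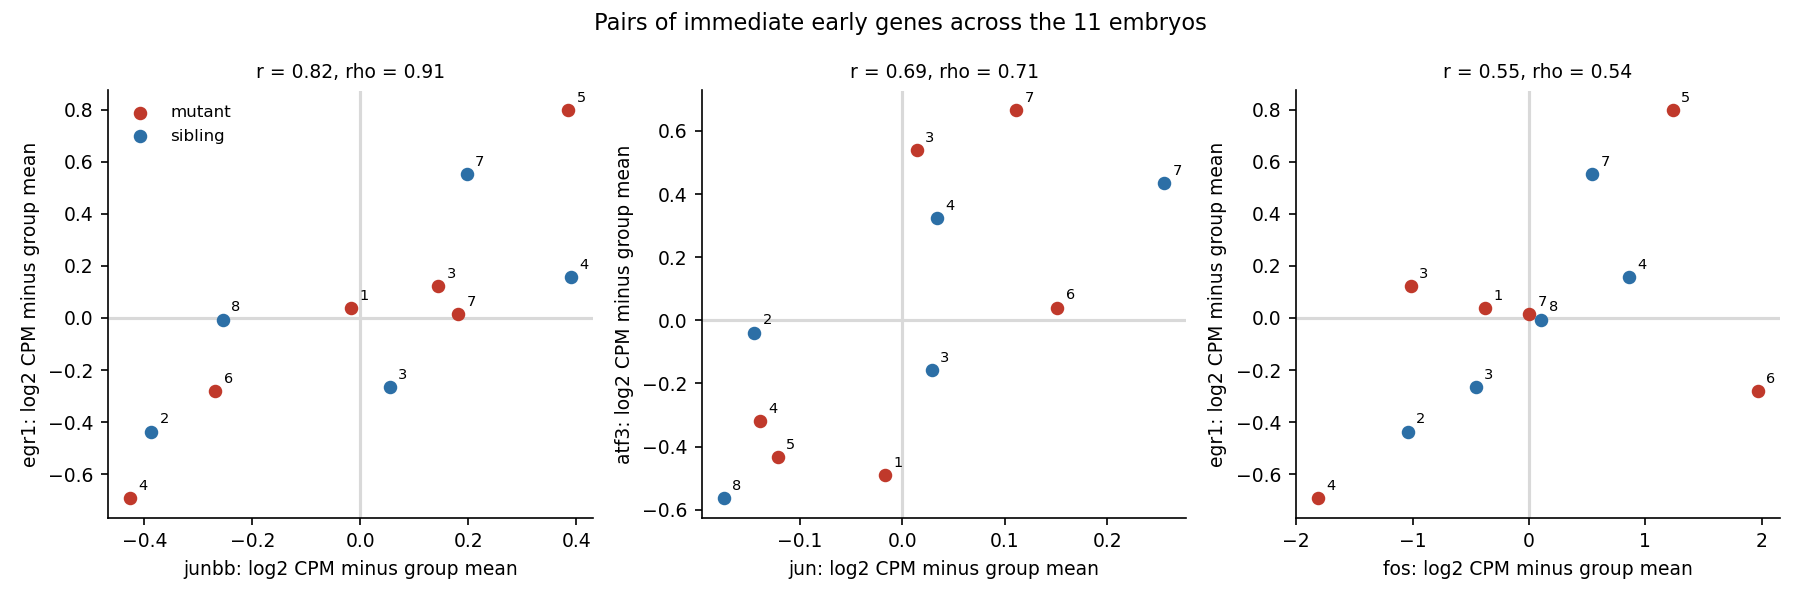
Deviations from the group mean (log2 CPM) of egr1 against junbb, atf3 against jun and egr1 against fos in mutants (red) and siblings (blue), numbered by replicate. Points run from lower left to upper right in the first panel (r = 0.82). In the last, mutant 6 lies farthest right (fos 1.97, egr1 −0.28), followed by mutant 5 (fos 1.24, egr1 0.80).

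Of 10622 other genes with a mean count of at least 50, the 8 whose deviations were most like the mean profile of the tested members included 2 known immediate early transcription factor genes. These were cebpd, which encodes a C/EBP factor of the acute response (r = 0.90), and junba (r = 0.85). The others were ap1s3b, an adaptor subunit of vesicle coats (r = 0.91), otop1, a proton channel of the otopetrin family (r = 0.88), kbtbd4 (r = 0.85), b3gntl1 (r = 0.84), si:ch211-217k17.7 (r = 0.84) and arfrp1 (r = 0.84). These r values describe the 11 libraries, which all genes share, and the 8 are the extreme of many genes. The log2 fold change of cebpd was −0.003 ± 0.12 (SE; edgeR adjusted p = 0.997). An r of at least 0.5 with the profile was found for 4.53% of the 10622 genes. Of the 27 other immediate early transcription factor genes tested, 4 (14.8%) had such an r, cebpd and junba among them. The 27 were not held to a mean count of at least 50, so the 2 shares are not strictly alike. Among the 4, nr4a3 averaged 33.5 counts. The median r of the 27 was 0.19, and 22 were above 0. Some went the other way, such as ier5 at −0.63 and klf2a at −0.42. An r of at least 0.5 was not particular to these genes. It was found for 6 of 31 effector and feedback genes (19.4%) and 2 of 13 integrated stress response genes (15.4%), described below. For Erk targets it was 0 of 12, for AP-1 and CREB partners 1 of 22 (4.55%) and for heat shock genes 1 of 18 (5.56%). These lists were likewise not held to a least mean count.

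Among related gene groups none had a member called by edgeR in either direction. That test called 0 of all 12301 tested genes, and 50.2% of these had fitted values above 0. Of the 27 other immediate early transcription factor genes tested, 20 had fitted values above 0 and 7 below, with a median log2 fold change of 0.16. Of these, 4 above 0 and 1 below had an unadjusted p under 0.05, as did 6.85% of all tested genes. The Myc genes mycb and mych had the lowest p of that list. Levels of mycb averaged 77.4 ± 10.7 CPM in mutants and 58.8 ± 9.04 CPM in siblings (log2 fold change 0.40 ± 0.11 SE, edgeR adjusted p = 0.540), and mych was at 0.25 ± 0.09 (adjusted p = 0.634). Of 31 effector and feedback genes, 21 were above 0, with a median of 0.11 and 3 genes at an unadjusted p under 0.05. They included per1b, a repressor of the circadian clock, at 0.38 ± 0.11 (adjusted p = 0.505), and ptgs2b, which encodes a cyclooxygenase. Mutant 7 had 43.1 CPM of ptgs2b, the remaining mutants had 4.50 to 10.2 CPM and siblings 3.57 to 6.08 CPM (1.53 ± 0.57, adjusted p = 0.676). Without mutant 7 the log2 fold change of ptgs2b was 0.59 ± 0.22.

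The list of Erk targets and feedback inhibitors had 12 of 12 fitted values above 0, with a small median of 0.13, and 3 genes at an unadjusted p under 0.05. Over all tested genes 50.2% were above 0 and 6.85% had such a p, and the 12 share their libraries. Its genes of lowest p were spry1, a Sprouty inhibitor of receptor tyrosine kinase signalling, and etv5a, an Ets factor downstream of Fgf. Levels of spry1 spanned 4.48 to 8.91 CPM among mutants and 3.90 to 5.27 CPM among siblings (log2 fold change 0.49 ± 0.17 SE, edgeR adjusted p = 0.653). Levels of etv5a spanned 80.8 to 88.9 CPM among mutants and 70.8 to 79.6 CPM among siblings (0.14 ± 0.05, adjusted p = 0.662). The highest embryo for both was mutant 6, and for every gene of this list it was mutant 6 or mutant 7. Of 22 partners of AP-1 and CREB and their upstream kinases, 15 were above 0 (median 0.07, 0 at an unadjusted p under 0.05). They included the Jun kinase gene mapk8b at 0.22 ± 0.14 and the Erk pathway kinase gene map2k2b at 0.14 ± 0.08.

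The 2 stress lists had medians near 0. Over all tested genes 50.2% were above 0 and 6.85% had an unadjusted p under 0.05. Of 18 heat shock and chaperone genes, 10 were above 0 and 8 below, with a median log2 fold change of 0.008 and 3 genes at an unadjusted p under 0.05. The inducible chaperone gene hsp70l, which heat induces, spanned 2.06 to 5.57 CPM among mutants and 1.22 to 2.88 CPM among siblings (0.79 ± 0.29 SE, edgeR adjusted p = 0.672). Its highest embryo was mutant 3, where fos was within the sibling range. The collagen chaperone gene serpinh1b was at 0.20 ± 0.09. Of 13 genes of the integrated stress response, in which atf3 takes part, 6 were above 0 and 7 below, with a median of −0.003 and 2 genes at such a p. The serine synthesis genes phgdh (−0.26 ± 0.08, adjusted p = 0.614) and psat1 (−0.18 ± 0.07, adjusted p = 0.662) had the lowest p. Of the 12 genes named from these lists, which were picked for their low p, per1b and etv5a had all mutants above all siblings and phgdh and psat1 all mutants below. Groups did not overlap in 0.943% of all tested genes, which were not picked for their p.

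Tissue makeup was compared through summed marker levels, whose part in the spread of fos was not tested. Myeloid markers, 4 of 4 detected, summed to 39.9 to 70.0 CPM in mutants and 38.4 to 78.6 CPM in siblings, with mutants 5 and 6 at 48.2 and 39.9 CPM. Skin markers, 4 of 4, spanned 26548 to 37364 CPM among mutants and 27930 to 37470 CPM among siblings, with mutants 5 and 6 at 29393 and 30878 CPM. Neuronal markers, 4 of 4, spanned 291 to 370 CPM among mutants and 278 to 323 CPM among siblings, with these 2 embryos at 316 and 291 CPM. Erythroid markers, 3 of 4 in the tables and all 3 detected, spanned 556 to 2703 CPM among mutants and 1239 to 1916 CPM among siblings, and the lowest value belonged to mutant 6. Notochord markers, likewise 3 of 4 in the tables, spanned 1266 to 2234 CPM among mutants and 1340 to 2166 CPM among siblings. Here mutant 5 was the highest and mutant 6 the lowest of all embryos. Neural progenitor markers, also 3 of 4, spanned 733 to 938 CPM among mutants and 795 to 1001 CPM among siblings. Mutants 5 and 6 were below every sibling, at 758 and 741 CPM. The lowest embryo was mutant 3 at 733 CPM, where fos was within the sibling range. The mutant median, 769 CPM, was also below every sibling. For muscle and hatching gland markers, 4 of 4 each, mutants 5 and 6 lay within the sibling range.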

How the data were processed

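Per the labels' protocols, libraries of single whole embryos were made with the unstranded Illumina TruSeq RNA kit v2. The authors deposited estimated counts and TPM values, 1 column per embryo. CASAVA 1.8.2, Bowtie 1.1.1, RSEM 1.2.18 and build Zv9 are named in the submitters' processing notes, with no role stated, and the annotation is not given in the sources used here. The deposited counts are whole numbers, taken as RSEM estimated counts rounded before deposit. Such estimates can split reads between close paralogs. The deposited TPM values are scaled for length and to 1000000 per embryo. They served for levels between genes and for repeats.

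Groups follow the titles. In 25 within-group pairs of libraries the chi-square was at least 7.79 per degree of freedom, so no library was counted as a copy. Counts were tested with edgeR 4.0.16 (R 4.3.3) by the quasi-likelihood test, with TMM normalisation, filterByExpr and Benjamini-Hochberg adjustment over 12301 tested genes. SEs come from the F statistic, and log2 CPM uses a prior count of 1. Exact permutation tests were two-sided. Correlations used 100000 shuffles of embryos within groups. The tests were checked on simulated data. Repeats used DESeq2 1.42.0, limma 3.58.1, other normalisations, no filter, TPM with pseudocounts of 1 and 0.1, a threshold of 0.1, the replicate number as a block, and each embryo left out.

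The members and lists were chosen with earlier results of these data known. Named were all members, the called genes of each list or else its 2 of lowest p, and the 8 genes most like the members. One list was fitted and, after its values were seen, left out; it is not reported here. RefSeq's table of assembly GRCz12tu was used for names only. Figures were drawn with matplotlib 3.10.9.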

Additional observations from a re-analysis of the deposited data

Results flagged for a closer look

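In 22 genes, each looked at in both groups, 4 embryos lay far from the rest of their group on the CPM scale; chance gives such a gap in about 1 in 20 groups. None of the 4 was in a member. For ptgs2b mutant 7 was at 43.1 CPM, and the next mutant was at 10.2 CPM. For hsp70l mutant 3 was at 5.57 CPM, and the next mutant was at 3.20 CPM. For phgdh mutant 6 was the lowest mutant at 88.3 CPM, and the next was at 113 CPM. For mapk8b sibling 3 was the lowest sibling at 12.1 CPM, and the next was at 19.7 CPM.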

How the results depend on the processing

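No setting called a member. The number of all genes called, 0 by edgeR, was 44 with DESeq2, 2 with limma-voom, 32 with limma-voom and sample weights, 2 at a threshold of 0.1, and 0 to 24 with 1 embryo left out (24 without mutant 6, 1 without sibling 7). The log2 fold change of fos kept its sign in all 22 repeats, from 0.35 with the replicate block, otherwise from 1.27, to 2.24. Its exact permutation p was 0.0238 without mutant 4, and 0.0524 to 0.138 in the other repeats. With 1 embryo left out fosl2 ran from −0.0032 (without sibling 3) to 0.19, and the log2 CPM difference of fosb from −0.024 (without mutant 4) to 0.32; the cause was not tested. The number of member pairs that passed, 0 by Pearson's r, was 1 by Spearman's rho, 1 without centring on group means and 0 to 4 with 1 embryo left out (4 without mutant 6, 1 without sibling 3 or sibling 4). The replicate numbers 3, 4 and 7 occur in both groups, but same-numbered embryos did not deviate together (r = −0.31, −0.19 and −0.14 over all tested genes). With the number as a block 0 genes were called, and fos was at 0.35 ± 0.49 (adjusted p = 1.00). That fit compares the groups only through the embryos numbered 3, 4 and 7, so mutants 5 and 6, the highest in fos, do not enter its estimate. Few counts limit fosb most.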
